A study of Mus musculus with 21 samples.

Results

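The genes described here are 31 enzymes of the pentose phosphate pathway and of nucleotide synthesis, chosen by gene symbol from the 40838 gene rows of each count table. By role they comprise 6 enzymes of the pentose phosphate pathway, 2 phosphoribosyl pyrophosphate (PRPP) synthetases, 9 purine enzymes, 4 pyrimidine enzymes, 6 deoxynucleotide enzymes and 4 salvage kinases and transferases. All 31 were counted in every library and all 31 passed the filter on low counts in both fits. The cells were mouse ESCs (embryonic stem cells, a cultured pluripotent type), and their poly(A) RNA gave 21 libraries in 8 groups. Every group spent 48 h in a DMEM and NB mixture with 10% dialyzed serum and 0.2 mM pyruvate.

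The first table held 3 libraries of vector cells and 3 of LbNOX cells in SL medium, read here as serum with leukemia inhibitory factor. LbNOX is a bacterial enzyme that turns NADH into NAD+ and water. A second table held SLC16A1 clones 1 and 2 beside a line named chr8A, read here as the control. Each of these lines had 3 libraries in SL medium and 2 in SL2i. SL2i was read as SL with inhibitors of the kinases GSK3B and MEK. Slc16a1 encodes MCT1, a carrier of pyruvate and lactate. How the clones were altered and which promoter drove LbNOX are not given in the sources used here, and each clone is a single line, so a difference between a clone and chr8A may belong to that line. The labels do not say that replicates were separate cultures, so the p-values reflect only how far these libraries lie apart within a group.

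As background, the pentose phosphate pathway splits from glycolysis, and its oxidative arm yields NADPH while its non-oxidative arm exchanges sugars with glycolysis and supplies ribose 5-phosphate. PRPP synthetases activate that ribose. The purine ring is then built on PRPP up to IMP, the common precursor of AMP and GMP, whereas the pyrimidine ring is built before ribose is added. Ribonucleotide reductase and thymidylate synthase turn ribonucleotides into the building blocks of DNA, and salvage enzymes recycle free bases and nucleosides. ESCs divide fast, with much of their cycle spent in S phase, when DNA is copied.

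Counts per library ran from 16521594 to 30008895 for vector and LbNOX cells, from 15802072 to 30145771 for chr8A and the clones in SL and from 9784408 to 10908368 for these in SL2i. Every SL2i library was thus shallower than every SL library, and medium and library set cannot be told apart. Slc16a1, the check of the clone labels, stood at 198 ± 2.99 CPM (TMM-normalized counts per 1e6 reads, mean ± SD) in chr8A, 171 ± 10.4 in clone 1 and 93.5 ± 2.65 in clone 2 in SL (n = 3 each). In SL2i it stood at 162 ± 6.96, 123 ± 0.732 and 78.6 ± 0.122 (n = 2 each), so both clones were below chr8A in both media. All 7 ESC markers were transcribed in every group, with summed levels of 3811 to 4034 CPM in SL chr8A and 7028 to 7397 in SL2i chr8A. Summed markers of other cell types were lower in SL2i. The 8 fibroblast markers summed to 43.3 to 48.1 CPM in SL chr8A and 10.2 to 10.8 in SL2i chr8A, where Col3a1, Dcn and Postn were at 0. The 5 neural markers summed to 337 to 348 and 57.4 to 61.7, the 6 trophoblast markers to 374 to 384 and 59.9 to 67.3, and the 6 endoderm markers to 22.3 to 25.01 and 4.34 to 4.35 CPM. Single markers did not all fall in chr8A, by edgeR at an adjusted p under 0.05. Fibroblast markers had 1 of 6 tested higher and 5 lower, and neural markers 1 of 5 higher and 4 lower. Trophoblast markers had 2 of 5 higher and 3 lower, and endoderm markers 0 of 4 higher and 3 lower. Of all genes tested, 36.1% rose and 36.8% fell. The part of these markers in the medium results below was not tested. In bulk RNA, fewer cells of a type and less RNA per cell cannot be told apart.

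Levels between genes were compared per length, as CPM per kilobase of the gene length in the tables. In SL chr8A the highest level was that of Paics, a bifunctional purine enzyme, at 255 ± 1.79 CPM per kilobase (n = 3). Transketolase (Tkt) followed at 190.1 ± 0.807 and adenine phosphoribosyltransferase (Aprt) at 179.7 ± 0.926. The lowest were Rpia (5.38 ± 0.324), which isomerizes ribose 5-phosphate, and Rrm2b (1.64 ± 0.130), the alternative small subunit of ribonucleotide reductase. Neighbours in this order whose libraries overlapped included Hprt with Atic, Atic with Rrm2, Ppat with Umps, Dhodh with Impdh2, and Prps2 with Tyms. In SL2i chr8A Paics was again the highest at 382 ± 0.100 (n = 2). Impdh2 went from rank 24 of 31 in SL chr8A to rank 9 in SL2i chr8A, with levels of 17.6 ± 0.643 and 90.7 ± 0.0960 CPM per kilobase. Prps2 went from rank 27 to rank 30.

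The medium comparison asked how the enzymes differ between SL and SL2i. Impdh2, which makes the GMP precursor XMP, rose to 5.16 times its SL level in chr8A, 5.93 times in clone 1 and 5.40 times in clone 2. Thymidine kinase (Tk1) rose to 3.105, 2.66 and 2.42 times, and Prps2, a PRPP synthetase, fell 3.13-fold, 3.70-fold and 3.81-fold. Genes of the deoxynucleotide branch mostly rose, while the purine, pyrimidine and pentose phosphate branches each held genes that rose and genes that fell. In chr8A 15 of the 31 members rose and 11 fell at an adjusted p under 0.05 by edgeR's quasi-likelihood test, where 36.1% of all genes tested rose and 36.8% fell. In clone 1 the counts were 16 and 10 (all genes: 35.9% and 37.1%), and in clone 2 they were 16 and 11 (35.8% and 37.2%). The median log2 fold change of the members was 0.11, 0.12 and 0.12 in the 3 lines, beside 0.00 for all genes in chr8A. Between these media most genes of any kind passed, so the counts alone do not set the members apart. With counts thinned to the smallest library total, 25, 26 and 29 members passed. In all 3 lines 13 members rose (28.7% of all genes did) and 9 fell (30.4% of all genes). The 3 lines share no libraries in this comparison.

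**Figure D1:**
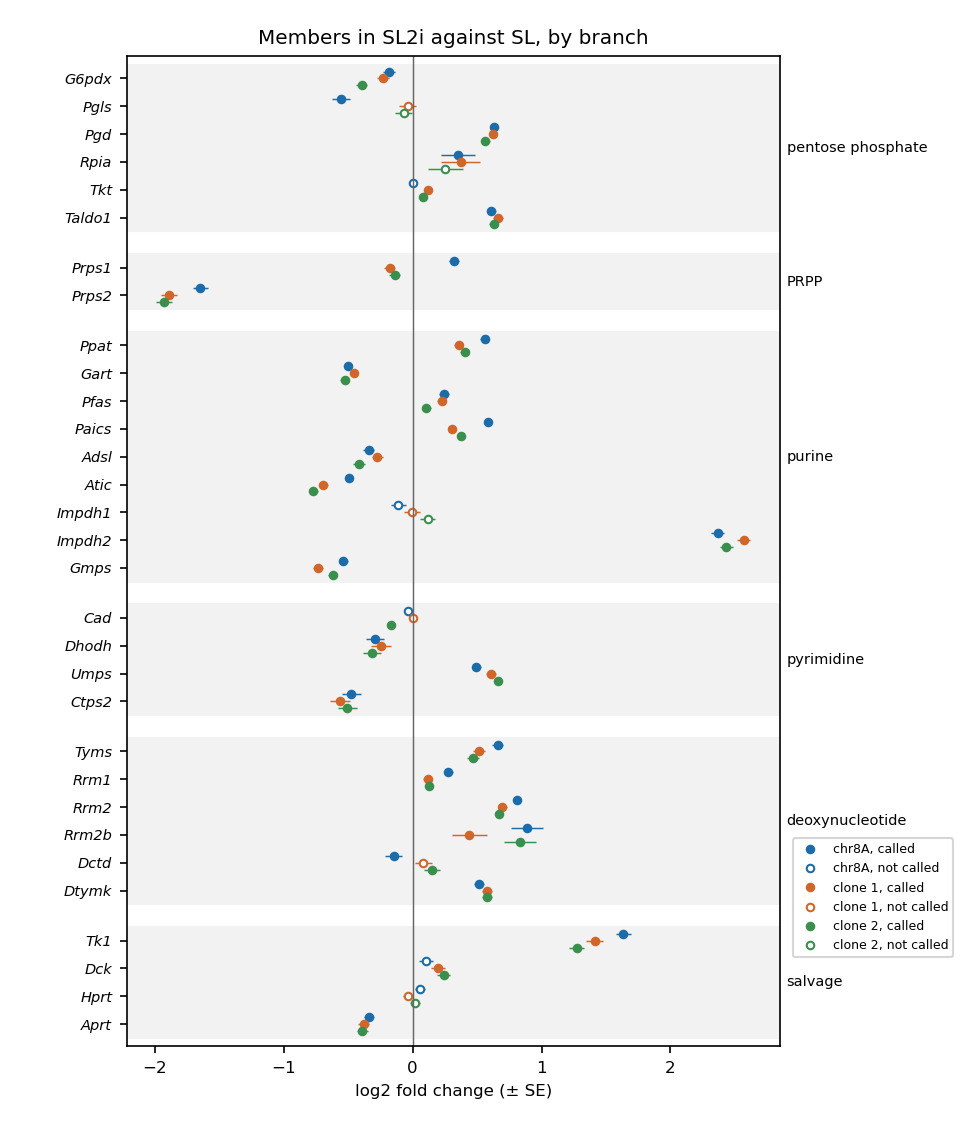
Log2 fold change of each member in SL2i against SL (x axis, ± SE), by gene and branch (y axis), for chr8A, clone 1 and clone 2; filled points passed the adjusted p of 0.05. Impdh2 lies farthest right at 2.37 in chr8A and Prps2 farthest left at -1.65, and 5 of the 6 deoxynucleotide genes lie right of 0 in chr8A.

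By branch, chr8A had 3 of 6 pentose phosphate genes higher and 2 lower (median log2 fold change 0.18), and 4 of 9 purine genes higher and 4 lower (median -0.11). Of the 4 pyrimidine genes 1 rose and 2 fell (median -0.16). Deoxynucleotide genes had 5 of 6 higher and 1 lower (median 0.59). Of the 4 salvage genes 1 rose and 1 fell (median 0.08). Clone 1 had 4 pentose phosphate genes higher and 1 lower, 4 and 4 purine genes, 1 and 2 pyrimidine genes, and 5 and 0 deoxynucleotide genes. The same counts for clone 2 were 3 and 1, 4 and 4, 1 and 3, and 6 and 0. Of all genes tested, 36.1% rose and 36.8% fell in chr8A, 35.9% and 37.1% in clone 1 and 35.8% and 37.2% in clone 2. Each branch holds few genes, and none was tested as a set. Summed over its genes, the deoxynucleotide branch went from 803 ± 10.9 CPM in SL chr8A (n = 3) to 1167 ± 3.79 in SL2i chr8A (n = 2). The same sums were 2435 ± 21.1 and 2627 ± 41.5 for purine, 759.8 ± 4.79 and 795 ± 8.68 for pyrimidine and 1227 ± 7.78 and 1434 ± 41.4 for pentose phosphate genes. In each of these chr8A sums the SL2i libraries lay above the SL libraries. The purine sum went the other way in the clones, from 2489 ± 11.2 to 2436 ± 28.0 CPM in clone 1 and from 2551 ± 18.9 to 2475 ± 6.53 in clone 2, without overlap. In chr8A the PRPP pair was lower in sum, at 257 ± 2.82 and 218 ± 11.6 CPM, and the salvage genes were higher, at 413 ± 2.89 and 457 ± 6.43.

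In the pentose phosphate pathway, the oxidative steps went in different directions. G6pdx, whose enzyme commits glucose 6-phosphate to the pathway, stood at 114, 123 and 125 CPM in the SL libraries of chr8A and 107 and 105 in its SL2i libraries. In clone 1 its values were 122, 127 and 125 in SL and 104 and 109.5 in SL2i, and in clone 2 135, 136 and 138 in SL and 97.7 and 109 in SL2i. The SL2i libraries lay below the SL libraries in each line, and the log2 fold changes were -0.18 ± 0.046 in chr8A, -0.23 ± 0.047 in clone 1 and -0.40 ± 0.045 in clone 2 (largest adjusted p = 1.9e-04). Pgls, the lactonase of the next step, had 47.4, 50.4 and 52.7 CPM in SL chr8A and 33.3 and 35.0 in SL2i chr8A. The clones did not share that drop: clone 1 had 43.0, 47.6 and 47.5 in SL and 44.7 and 44.9 in SL2i, and clone 2 had 47.8, 43.8 and 45.5 in SL and 43.5 and 43.2 in SL2i. Its log2 fold change was -0.56 ± 0.069 in chr8A (adjusted p = 7.5e-12), against -0.04 ± 0.068 and -0.07 ± 0.066 in the clones (adjusted p = 0.61 and 0.35). The third oxidative enzyme, 6-phosphogluconate dehydrogenase (Pgd), rose from 225 ± 5.83 to 348 ± 7.72 CPM in chr8A, by 0.63 ± 0.034 in chr8A, 0.62 ± 0.034 in clone 1 and 0.56 ± 0.034 in clone 2 on the log2 scale (largest adjusted p = 1.3e-29).

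The non-oxidative transaldolase Taldo1 rose with Pgd, from 209 ± 3.003 to 319 ± 4.46 CPM in chr8A, by 0.61 ± 0.037 in chr8A, 0.66 ± 0.038 in clone 1 and 0.63 ± 0.038 in clone 2 (largest adjusted p = 3.9e-25). Its partner Tkt had 611, 613 and 616 CPM in SL chr8A and 586 and 644 in SL2i chr8A, which overlap. In clone 1 Tkt stood at 585, 564 and 580.3 in SL and 619 and 635 in SL2i, and in clone 2 at 566, 567 and 566 in SL and 606 and 592 in SL2i. The small rises in the clones passed, at 0.12 ± 0.032 and 0.08 ± 0.032, but the change differed from that of chr8A by an amount that did not pass (adjusted p = 0.056 and 0.26). Rpia was low throughout, with 9.14, 9.28 and 10.2 CPM in SL and 13.5 and 10.8 in SL2i for chr8A. Clone 1 had 8.14, 7.86 and 6.67 in SL and 10.2 and 9.36 in SL2i, and clone 2 had 9.18, 8.74 and 9.47 in SL and 8.91 and 12.8 in SL2i. It rose in chr8A (0.35 ± 0.13, adjusted p = 0.015) and clone 1 (0.37 ± 0.15, adjusted p = 0.022), and the value in clone 2 was 0.25 ± 0.14 (adjusted p = 0.090).

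The PRPP synthetases Prps1 and Prps2 catalyse the same reaction and lie apart on the X chromosome. Prps2 fell in every line. Its SL libraries had 112, 109 and 112 CPM in chr8A, 129.7, 121 and 120.0 in clone 1 and 127, 129.8 and 121 in clone 2. The SL2i libraries had 37.4 and 33.3 CPM in chr8A, 33.4 and 33.5 in clone 1 and 32.0 and 34.1 in clone 2, so that the media did not overlap. The log2 fold changes were -1.65 ± 0.058 in chr8A, -1.89 ± 0.060 in clone 1 and -1.93 ± 0.058 in clone 2 (largest adjusted p = 1.0e-47). Prps1 went up in one line and down in the others. In chr8A it had 149, 147 and 144 CPM in SL and 189 and 177 in SL2i. Clone 1 had 145, 147 and 143 in SL and 129 and 127 in SL2i, and clone 2 had 158, 153 and 151 in SL and 143 and 136 in SL2i, with SL2i below SL in both. It rose by 0.32 ± 0.039 in chr8A (adjusted p = 2.4e-12), whereas its log2 fold changes in the clones were -0.18 ± 0.042 and -0.14 ± 0.040 (adjusted p = 9.8e-05 and 0.0013).

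In purine synthesis Ppat, Pfas and Paics rose and Gart, Adsl and Atic, which also act on the way to IMP, fell, in each of the 3 lines. Ppat, the amidotransferase that opens the pathway, had 194, 184 and 184 CPM in SL and 279 and 273 in SL2i for chr8A. Clone 1 had 205, 215 and 212 in SL and 273 and 267 in SL2i, and clone 2 had 213, 214 and 213 in SL and 276 and 288 in SL2i. Every SL2i library was above every SL library of the table, and Ppat rose by 0.56 ± 0.035 in chr8A, 0.36 ± 0.035 in clone 1 and 0.40 ± 0.034 in clone 2 (largest adjusted p = 3.1e-16). Paics had 639.9, 635 and 631 CPM in SL and 953 and 952 in SL2i for chr8A. In clone 1 it had 588, 602 and 596 in SL and 750.4 and 722 in SL2i, and in clone 2 602, 607 and 608 in SL and 797 and 776 in SL2i, so that the clones' SL2i libraries lay between the SL libraries and the SL2i libraries of chr8A. Paics rose by 0.58 ± 0.030 in chr8A, 0.31 ± 0.031 in clone 1 and 0.38 ± 0.030 in clone 2 (largest adjusted p = 4.6e-16). The smallest of these rises was that of Pfas, by 0.24 ± 0.037 in chr8A, 0.22 ± 0.038 in clone 1 and 0.11 ± 0.037 in clone 2 (largest adjusted p = 0.0082).

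Gart, whose enzyme carries out several early steps, went from 629.7 ± 10.3 to 445 ± 15.9 CPM in chr8A, with log2 fold changes of -0.50 ± 0.032 in chr8A, -0.45 ± 0.032 in clone 1 and -0.53 ± 0.032 in clone 2 (largest adjusted p = 8.6e-25). Adsl, which acts before IMP and again on the way to AMP, had 119.9, 127 and 127 CPM in SL chr8A, 123, 129.6 and 129 in SL clone 1 and 136, 143 and 133 in SL clone 2. In SL2i the values were 96.8 and 99.6 in chr8A, 104 and 106 in clone 1 and 104 and 101 in clone 2. Each line was lower in SL2i, at -0.34 ± 0.045 in chr8A, -0.27 ± 0.046 in clone 1 and -0.41 ± 0.045 in clone 2 (largest adjusted p = 9.9e-08). Atic, which closes the ring to IMP, had 324, 313 and 314 CPM in SL and 221 and 229 in SL2i for chr8A. Clone 1 had 356, 345 and 338 in SL and 215 and 213 in SL2i, and clone 2 had 372, 373 and 358 in SL and 209.8 and 221 in SL2i. The falls were -0.49 ± 0.035 in chr8A, -0.69 ± 0.035 in clone 1 and -0.77 ± 0.035 in clone 2 (largest adjusted p = 7.2e-25), with no overlap between the media.

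The arm from IMP to GMP held the largest change of the 31 genes and an opposite change in the step after it. Impdh2 had 30.8, 32.5 and 30.3 CPM in the SL libraries of chr8A and 161 and 161 in its SL2i libraries. In clone 1 the values were 30.1, 28.2 and 30.7 in SL and 177 and 175 in SL2i, and in clone 2 32.0, 30.99 and 28.6 in SL and 171 and 157 in SL2i. Every SL2i library was more than 4 times the highest SL library, and the rises were 2.37 ± 0.050 in chr8A, 2.57 ± 0.053 in clone 1 and 2.43 ± 0.050 in clone 2 (largest adjusted p = 1.5e-67). The other isoform, Impdh1, had 73.5, 72.7 and 69.1 CPM in SL chr8A and 65.6 and 67.0 in SL2i chr8A. Clone 1 had 82.7, 67.1 and 72.2 in SL and 72.1 and 75.6 in SL2i, and clone 2 had 68.5, 65.2 and 67.8 in SL and 75.1 and 70.4 in SL2i. It did not pass in any of the 3 lines, at -0.11 ± 0.059 in chr8A, -0.01 ± 0.059 in clone 1 and 0.12 ± 0.058 in clone 2. Gmps, which turns XMP into GMP, had 233, 239 and 231 CPM in SL and 159 and 165 in SL2i for chr8A. Clone 1 had 248, 261 and 260.2 in SL and 155 and 153 in SL2i, and clone 2 had 271, 256 and 254 in SL and 163 and 175 in SL2i. It fell in every line, with log2 fold changes of -0.54 ± 0.038 in chr8A, -0.73 ± 0.039 in clone 1 and -0.62 ± 0.038 in clone 2 (largest adjusted p = 2.0e-24).

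**Figure D2:**
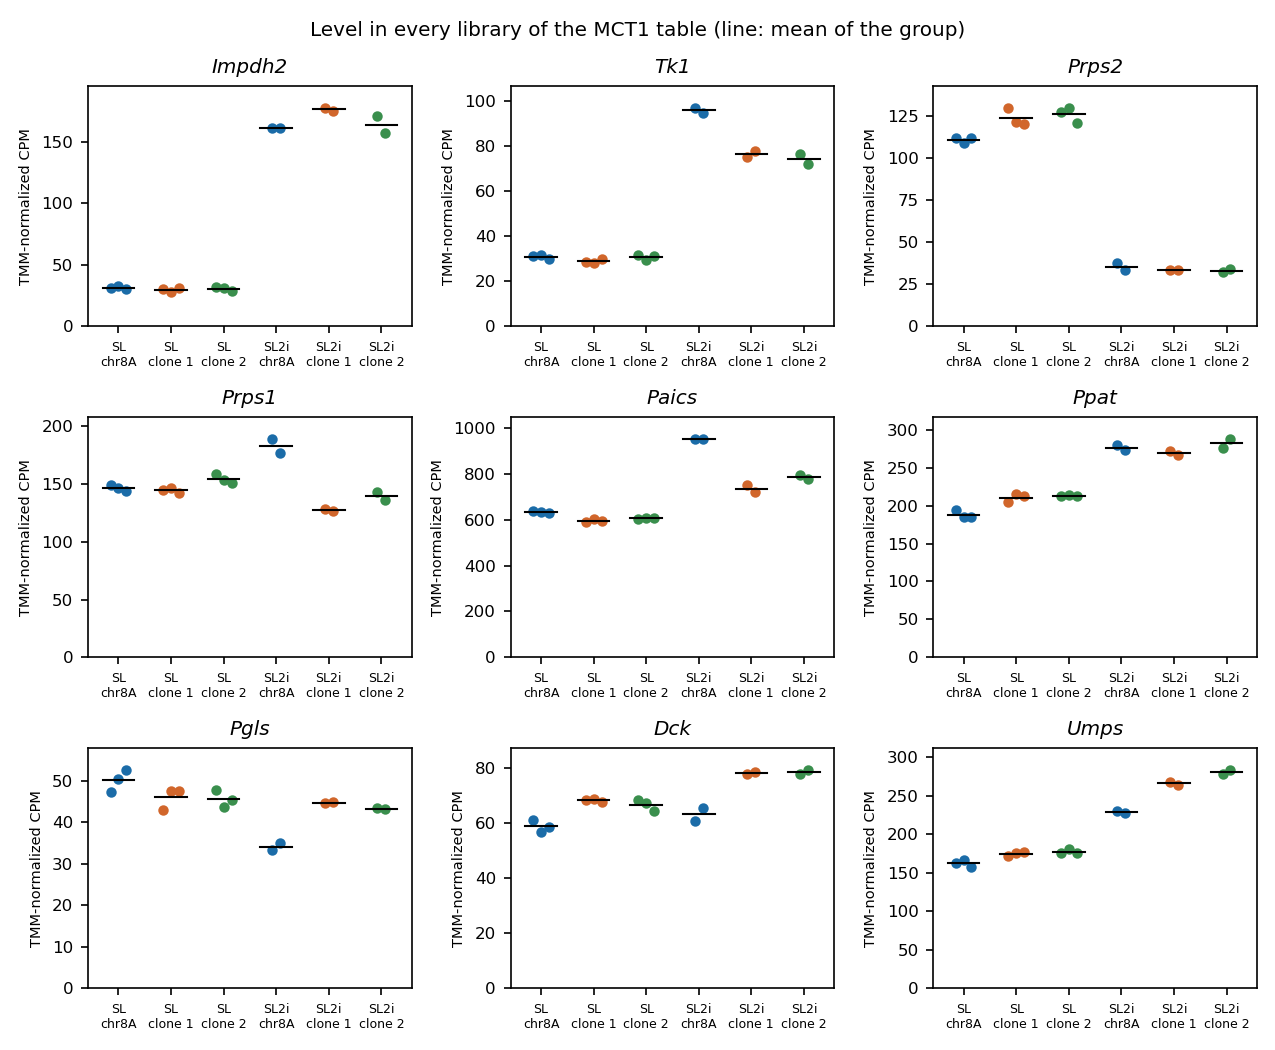
TMM-normalized CPM (y axis, from 0) in each library of 9 members, by medium and line (x axis); points are libraries and lines are group means. Impdh2 and Tk1 stand higher and Prps2 lower in every SL2i library, and Prps1 and Paics stand highest in SL2i chr8A.

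Promoter sequences are shown for 4 of these genes. Ppat and Paics both rose in SL2i and have starts close to each other, and Impdh2 and Prps2 had the largest rise and the largest fall. Ppat (minus strand, start 76951578) and Paics (plus strand, start 76951302) lie head to head on chromosome 5, with RefSeq starts 276 bases apart and transcripts that overlap there. The sequences are RefSeq's windows of 250 bases before to 50 after a start, in build GRCm38.p6, an older build than the GRCm39 of the counts. They run 5′ to 3′ on the gene's strand, and capitals mark an E-box (CACGTG) or a CCAAT box (CCAAT or, on the other strand, ATTGG).
Paics, chr5:76951052-76951351, plus strand: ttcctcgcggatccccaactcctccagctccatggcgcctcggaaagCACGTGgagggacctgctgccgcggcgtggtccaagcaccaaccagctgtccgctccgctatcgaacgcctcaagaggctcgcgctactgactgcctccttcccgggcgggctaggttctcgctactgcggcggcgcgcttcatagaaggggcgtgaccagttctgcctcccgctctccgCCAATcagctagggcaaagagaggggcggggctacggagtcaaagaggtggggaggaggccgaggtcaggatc
Ppat, chr5:76951529-76951828, minus strand: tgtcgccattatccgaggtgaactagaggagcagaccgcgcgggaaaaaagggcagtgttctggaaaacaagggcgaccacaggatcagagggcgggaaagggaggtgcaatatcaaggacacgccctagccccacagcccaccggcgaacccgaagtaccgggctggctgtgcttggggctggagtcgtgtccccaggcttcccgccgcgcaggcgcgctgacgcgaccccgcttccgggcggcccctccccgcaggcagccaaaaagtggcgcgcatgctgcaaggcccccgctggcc
Impdh2, chr9:108560186-108560485, plus strand: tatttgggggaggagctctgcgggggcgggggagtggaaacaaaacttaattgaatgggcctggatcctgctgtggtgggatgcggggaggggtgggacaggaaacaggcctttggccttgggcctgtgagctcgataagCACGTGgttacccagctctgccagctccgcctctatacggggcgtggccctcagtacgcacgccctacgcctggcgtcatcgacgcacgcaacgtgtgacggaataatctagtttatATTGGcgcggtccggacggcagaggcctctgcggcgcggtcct
Prps2, chrX:167382700-167382999, minus strand: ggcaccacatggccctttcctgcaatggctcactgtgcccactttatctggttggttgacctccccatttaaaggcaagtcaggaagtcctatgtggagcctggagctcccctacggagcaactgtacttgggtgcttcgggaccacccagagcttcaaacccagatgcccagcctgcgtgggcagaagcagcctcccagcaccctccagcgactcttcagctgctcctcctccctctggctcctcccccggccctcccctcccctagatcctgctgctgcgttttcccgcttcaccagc

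Paics and Impdh2 each hold both motifs, and neither Ppat nor Prps2 holds any of the motifs searched. The windows of Ppat and Paics share no base. Windows were found for 28 of the 31 members and were searched on both strands. An E-box, the form bound by MYC among other factors, occurred in 5 of the 28 members (17.9%), beside 8.09% of 27025 genes with a window. The 5 were Paics, Impdh2, Tyms and Dtymk, which rose in SL2i in all 3 lines, and Atic, which fell. CCAAT boxes occurred in 12 of 28 (42.9%), beside 41.1% of all genes. The E2F forms TTTCGCGC and TTTGGCGC and the palindromic NRF1 form, which can overlap each other at GCGC, were in none of the members' windows and in 0.929% and 1.07% of all genes. A match is a run of letters and not a measured binding site, and a missing match says nothing of the factor.

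In pyrimidine synthesis the first and last enzymes of UMP formation behaved differently. Cad, the trifunctional protein of the first steps, had 515, 511 and 513 CPM in SL and 496 and 506 in SL2i for chr8A. Clone 1 had 539.8, 524 and 521 in SL and 526 and 535 in SL2i, and clone 2 had 539.6, 529.9 and 533 in SL and 473 and 479 in SL2i. It passed in clone 2 alone (-0.17 ± 0.031, adjusted p = 1.4e-06), with -0.03 ± 0.031 in chr8A and 0.01 ± 0.031 in clone 1. The change in clone 2 differed from that in chr8A by -0.13 ± 0.044 (adjusted p = 0.025), a call lost under 9 of 17 alternative settings. Umps, which completes UMP, had 163, 167 and 158 CPM in SL and 230.2 and 228 in SL2i for chr8A. Clone 1 had 172, 176 and 177 in SL and 268 and 264 in SL2i, and clone 2 had 176, 181 and 176 in SL and 279 and 284 in SL2i. All SL2i libraries were above all SL libraries, with rises of 0.49 ± 0.036 in chr8A, 0.61 ± 0.036 in clone 1 and 0.66 ± 0.035 in clone 2 (largest adjusted p = 4.9e-24). Dhodh, the mitochondrial enzyme that passes electrons to ubiquinone, fell from 44.0 ± 2.34 to 36.0 ± 3.45 CPM in chr8A (-0.29 ± 0.071 in chr8A, -0.25 ± 0.074 in clone 1 and -0.32 ± 0.071 in clone 2; largest adjusted p = 0.0021). The CTP synthase gene Ctps2 fell from 40.4 ± 0.904 to 29.0 ± 0.110 CPM in chr8A (-0.48 ± 0.074 in chr8A, -0.57 ± 0.077 in clone 1 and -0.51 ± 0.075 in clone 2; largest adjusted p = 1.2e-08).

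Deoxynucleotide genes other than Dctd rose in SL2i in all 3 lines. Rrm2, the small subunit of ribonucleotide reductase made in S phase, had 267, 268 and 254 CPM in SL and 452 and 469 in SL2i for chr8A. Clone 1 had 278, 277 and 272 in SL and 441 and 451 in SL2i, and clone 2 had 283, 283 and 271 in SL and 450.0 and 436 in SL2i. The media did not overlap, and the rises were 0.81 ± 0.032 in chr8A, 0.70 ± 0.033 in clone 1 and 0.67 ± 0.032 in clone 2 (largest adjusted p = 9.4e-37). Rrm2b, a p53-inducible small subunit, had 9.31, 7.96 and 8.49 CPM in SL and 13.6 and 18.2 in SL2i for chr8A. Clone 1 had 9.31, 10.2 and 10.1 in SL and 13.1 and 13.7 in SL2i, and clone 2 had 8.75, 9.33 and 8.26 in SL and 13.5 and 17.8 in SL2i. It rose by 0.89 ± 0.13 in chr8A, 0.44 ± 0.13 in clone 1 and 0.83 ± 0.13 in clone 2 (largest adjusted p = 0.0024), with wide errors at this low level. The large subunit Rrm1 had 251, 262 and 252 CPM in SL and 302 and 316 in SL2i for chr8A. Clone 1 had 257, 262 and 246 in SL and 279 and 274 in SL2i, and clone 2 had 267, 269.6 and 258 in SL and 284 and 294 in SL2i. Its rises were smaller than those of Rrm2, at 0.28 ± 0.034 in chr8A, 0.12 ± 0.035 in clone 1 and 0.13 ± 0.034 in clone 2 (largest adjusted p = 0.0022).

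Thymidylate synthase (Tyms) had 82.8, 82.2 and 84.0 CPM in SL and 136 and 126 in SL2i for chr8A. Clone 1 had 87.4, 85.3 and 86.9 in SL and 122 and 125 in SL2i, and clone 2 had 96.9, 90.7 and 91.5 in SL and 131 and 125 in SL2i. Tyms rose by 0.66 ± 0.044 in chr8A, 0.51 ± 0.046 in clone 1 and 0.47 ± 0.044 in clone 2 (largest adjusted p = 3.4e-17). The next kinase of the thymidine route, Dtymk, rose from 146 ± 4.24 to 208 ± 12.7 CPM in chr8A, by 0.51 ± 0.038 in chr8A, 0.58 ± 0.039 in clone 1 and 0.58 ± 0.037 in clone 2 (largest adjusted p = 2.3e-23). Dctd, which deaminates dCMP to feed thymidylate synthase, had 45.4, 49.1 and 46.9 CPM in SL and 43.3 and 41.9 in SL2i for chr8A. Clone 1 had 49.1, 45.0 and 43.6 in SL and 49.7 and 47.7 in SL2i, and clone 2 had 46.2, 44.4 and 47.6 in SL and 51.8 and 50.5 in SL2i. It was called lower in chr8A (-0.15 ± 0.066, adjusted p = 0.038) and higher in clone 2 (0.15 ± 0.063, adjusted p = 0.027), with 0.08 ± 0.067 in clone 1 (adjusted p = 0.25). The change in clone 2 differed from that in chr8A by 0.30 ± 0.091 (adjusted p = 0.013).

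Among the salvage genes, Tk1, the cytosolic thymidine kinase that peaks in S phase, had 31.2, 31.6 and 30.01 CPM in SL and 97.1 and 94.99 in SL2i for chr8A. Clone 1 had 28.8, 28.2 and 29.7 in SL and 75.5 and 78.1 in SL2i, and clone 2 had 31.8, 29.7 and 31.1 in SL and 76.5 and 72.1 in SL2i. Every SL2i library was above 70 CPM and every SL library below 32, and the rises were 1.63 ± 0.057 in chr8A, 1.41 ± 0.063 in clone 1 and 1.27 ± 0.060 in clone 2 (largest adjusted p = 3.0e-37). Deoxycytidine kinase (Dck) had 61.3, 57.0 and 58.6 CPM in SL and 61.1 and 65.8 in SL2i for chr8A. Clone 1 had 68.4, 68.8 and 67.9 in SL and 77.9 and 78.7 in SL2i, and clone 2 had 68.6, 67.3 and 64.7 in SL and 77.9 and 79.5 in SL2i. It rose in clone 1 (0.20 ± 0.054, adjusted p = 7.9e-04) and clone 2 (0.24 ± 0.052, adjusted p = 2.7e-05), and its value in chr8A was 0.11 ± 0.055 (adjusted p = 0.078). The changes in the clones differed from that in chr8A by amounts that did not pass (adjusted p = 0.49 and 0.25). Aprt, for adenine, fell from 156 ± 0.802 to 123 ± 6.41 CPM in chr8A (-0.34 ± 0.041 in chr8A, -0.38 ± 0.042 in clone 1 and -0.39 ± 0.041 in clone 2; largest adjusted p = 1.7e-12). Hprt, which recycles hypoxanthine and guanine, did not pass in any line, at 0.06 ± 0.039 in chr8A, -0.04 ± 0.040 in clone 1 and 0.02 ± 0.039 in clone 2.

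Paralog pairs were followed as ratios of CPM per kilobase. Prps1 to Prps2 had ratios of 6.55, 6.60 and 6.32 in the SL libraries of chr8A and 24.8 and 26.0 in its SL2i libraries. In clone 1 the mean went from 5.74 ± 0.234 to 18.8 ± 0.235, and in clone 2 from 5.996 ± 0.176 to 20.8 ± 1.64. The pair thus leaned to Prps1 in every library, and more so in SL2i. The size of the lean depends on the gene lengths used, 1975 bases for Prps1 and 9680 for Prps2. Without them the means in SL chr8A were 147 and 111 CPM. Impdh1 to Impdh2 turned over, from 1.42 ± 0.0477 in SL chr8A to 0.253 ± 0.00413 in SL2i chr8A. The clones showed the same turn, from 1.53 ± 0.135 to 0.258 ± 0.0112 in clone 1 and from 1.35 ± 0.0880 to 0.273 ± 0.00387 in clone 2. Rrm2 to Rrm2b stood at 73.8 ± 6.17 in SL chr8A and 70.7 ± 12.5 in SL2i chr8A, ranges that overlap. In clone 1 the libraries did not overlap, with 67.0 ± 4.01 in SL and 80.1 ± 1.12 in SL2i, and clone 2 had 76.4 ± 3.13 and 69.5 ± 15.02, which overlap. These ratios were not tested.

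**Figure D3:**
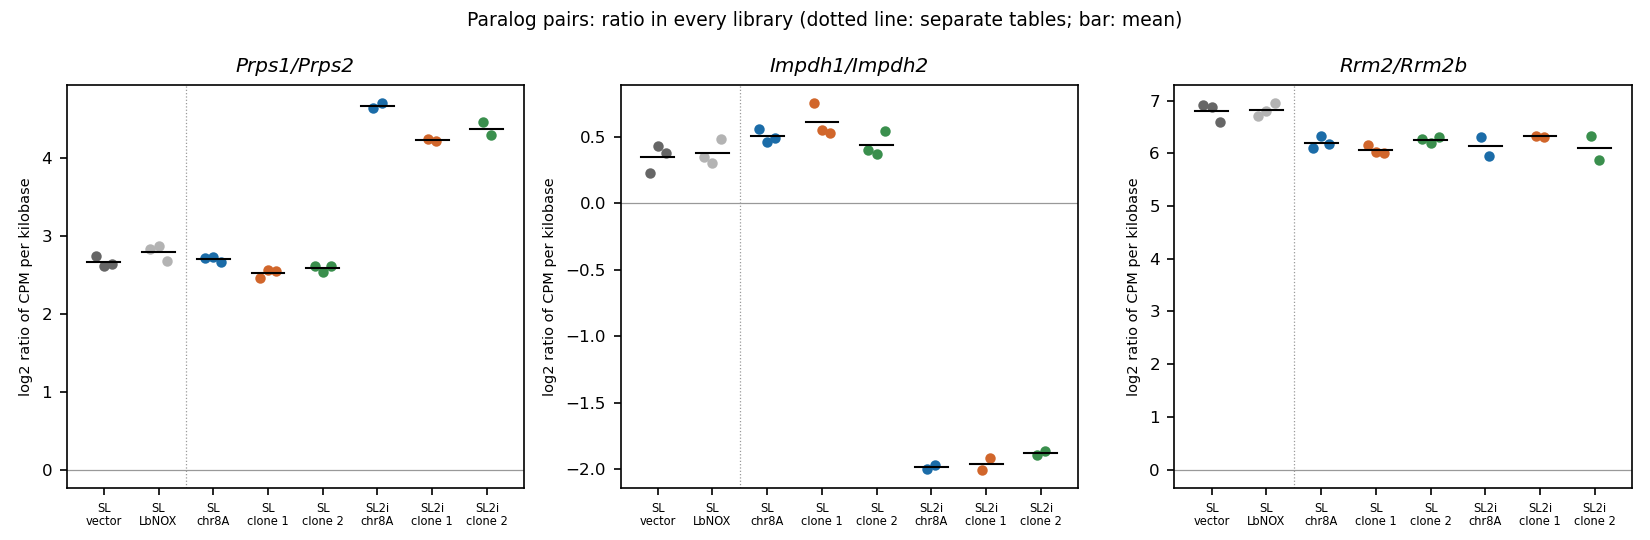
Log2 ratio of CPM per kilobase for 3 paralog pairs (y axes) in every library, by group (x axis), with bars at group means; the dotted line separates tables that were normalized separately. Prps1/Prps2 rises and Impdh1/Impdh2 crosses 0 between the SL and SL2i libraries, and Rrm2/Rrm2b overlaps between them in chr8A and clone 2 and stands higher in SL2i in clone 1.

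Some of these genes share sequence with another gene, so that reads could be counted to either, and their values are uncertain to that extent. The share of a gene's 30-base words that occur in another gene of the annotation was 44.0% for Impdh2 (43.4% in the pseudogene Impdh2-ps, not analysed here), 24.2% for G6pdx, 19.6% for Pgls, 19.1% for Prps1 and 17.3% each for Gart and Paics. It was 14.7% for Rrm2b, 14.5% for Taldo1, 13.4% for Rrm2, 11.9% for Tyms and 6.61% for Ppat, and 0 for Impdh1, Cad and Hprt. A limit of 5% shared was chosen after the data were seen. The 16 members at or above it had 12 higher and 4 lower in SL2i chr8A (median 0.53). For the 15 others the counts were 3 and 7 (median -0.11), where 36.1% of all genes rose and 36.8% fell. Tk1 (5.13%), Gmps (5.32%), Umps (5.46%) and Rrm1 (5.61%) lay just above the limit, so these counts depend on where it was set. A link between shared sequence and direction was not tested. Where a partner had its own row, its reads were compared. The pseudogene Tyms-ps had 385 reads over the SL libraries of chr8A (5.08 ± 1.03 CPM) and 0 over its SL2i libraries, which at those totals allows up to 3 reads. G6pd2, a copy of G6pdx, stood at 1.81 ± 0.810 and 0.0977 ± 0.00149 CPM (136 and 2 reads), and Niban3, which shares words with Pgls, at 4.94 ± 0.771 and 2.98 ± 0.529 CPM. In clones 1 and 2, Tyms-ps had 327 and 407 reads in SL and 0 and 2 in SL2i. G6pd2 had 81 and 157 reads in SL and 0 and 1 in SL2i in these clones. Prps1l3, a copy of Prps1, stood at 139 ± 1.68 CPM in SL chr8A and 115 ± 1.78 in SL2i chr8A (log2 fold change -0.28 ± 0.044). Reads of Ppat and Paics over their overlap can be told apart only by strand, and no source used here gives the strand setting of featureCounts. The part of shared reads in the medium results was not tested.

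Other genes of the same pathways were counted as whole lists, beside 36.1% of all genes that rose and 36.8% that fell in chr8A. In SL2i chr8A, 4 of 9 tested other pentose phosphate and ribose genes rose and 3 fell (median -0.01), among them Pgm2, a phosphopentomutase, at 1.40 ± 0.058 and Rpe, the ribulose-phosphate epimerase, at 0.54 ± 0.044. Of 18 other purine genes 5 rose and 12 fell (median -0.53). Adenylate kinase 4 (Ak4) rose by 2.93 ± 0.038, and adenosine kinase (Adk) and purine nucleoside phosphorylase 2 (Pnp2) had log2 fold changes of -2.18 ± 0.054 and -2.91 ± 0.13. For the 12 other pyrimidine genes tested the counts were 3 and 7 (median -0.15), with uridine phosphorylase (Upp1) up by 0.81 ± 0.037 and the CTP synthase Ctps at -0.46 ± 0.039. The 17 other deoxynucleotide genes had 6 higher and 5 lower (median 0.09). All adjusted p-values of the genes named here were at most 7.5e-20.

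Genes of DNA replication moved with the deoxynucleotide branch. Of 32 S phase genes 27 rose and 2 fell in SL2i chr8A (median 0.48), where 36.1% of all genes rose and 36.8% fell. The counts were 27 and 2 in clone 1 (median 0.45; all genes: 35.9% and 37.1%) and 26 and 3 in clone 2 (median 0.42; 35.8% and 37.2%). The sliding clamp Pcna rose by 1.36 ± 0.035, the helicase subunit Mcm7 by 0.85 ± 0.031 and DNA ligase 1 (Lig1) by 0.84 ± 0.032 in chr8A (largest adjusted p = 1.7e-44). Their summed level was 5054 to 5195 CPM in SL chr8A and 7277 to 7415 in SL2i chr8A. Cell cycle phase was not measured, and its part in the rise of Rrm2, Tyms and Tk1 was not tested.

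The clones were then compared with chr8A within SL, which asks what goes with a lowered Slc16a1. The differences were small, none over 0.34 on the log2 scale among called members. Ppat, Prps2, Atic, Gmps, Umps, Dck and Hprt rose in both clones, and Tkt and Paics fell in both. In clone 1 these 7 rose and 3 fell (Rpia, Tkt and Paics), where 8.83% of all genes rose and 7.77% fell. In clone 2 13 rose and 3 fell (all genes: 14.3% and 12.6%), with G6pdx, Gart, Adsl, Tyms, Rrm2 and Dtymk also higher and Pgls lower. The median log2 fold change of the members was 0.03 in clone 1 and 0.05 in clone 2. Both comparisons use the same chr8A libraries, so what they share is not independent. Of the other pathway genes, clone 1 had 3 of 18 purine genes higher and none lower, and clone 2 had 6 higher and 1 lower. For the 17 other deoxynucleotide genes, clone 1 had 3 higher and 1 lower, and clone 2 had 6 higher and 1 lower.

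Among the rises, Ppat stood at 187 ± 5.30 CPM in chr8A, 211 ± 5.19 in clone 1 and 213 ± 0.571 in clone 2 (n = 3 each). Every clone library was above every chr8A library, by 0.17 ± 0.030 in clone 1 (adjusted p = 9.2e-06) and 0.19 ± 0.030 in clone 2 (adjusted p = 2.6e-07). Dck rose by 0.21 ± 0.043 and 0.18 ± 0.041 (adjusted p = 8.0e-05 and 4.1e-04). Atic rose by 0.13 ± 0.028 and 0.21 ± 0.028 (adjusted p = 3.8e-04 and 1.0e-09), and Prps2 by 0.16 ± 0.037 and 0.18 ± 0.036 (adjusted p = 6.6e-04 and 2.0e-05). For these genes, too, the clone libraries did not overlap with chr8A. Gmps rose by 0.13 ± 0.030 and 0.15 ± 0.030, Umps by 0.10 ± 0.031 and 0.13 ± 0.030 and Hprt by 0.10 ± 0.032 and 0.11 ± 0.032 (largest adjusted p of the 6 values = 0.016). In clone 2, G6pdx also passed at 0.18 ± 0.035, Tyms at 0.16 ± 0.037, Adsl at 0.14 ± 0.034, Dtymk at 0.12 ± 0.032, Rrm2 at 0.08 ± 0.028 and Gart at 0.07 ± 0.027 (largest adjusted p = 0.038).

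Among the falls, Tkt changed by -0.09 ± 0.028 in clone 1 (adjusted p = 0.015) and -0.12 ± 0.028 in clone 2 (adjusted p = 6.4e-04), with all clone libraries below all chr8A libraries. Paics changed by -0.09 ± 0.027 (adjusted p = 0.0074) and -0.07 ± 0.027 (adjusted p = 0.046). Rpia was lower in clone 1, at -0.34 ± 0.11 (adjusted p = 0.027), and stood at -0.07 ± 0.10 in clone 2 (adjusted p = 0.69). Pgls was lower in clone 2, at -0.14 ± 0.049 (adjusted p = 0.020), with -0.13 ± 0.051 in clone 1 (adjusted p = 0.077). Several of these calls were near the threshold: Paics in clone 2 was lost under 7 of 13 alternative settings (adjusted p from 0.0051 to 0.16), Rpia in clone 1 under 4 of 13 (0.021 to 0.19), Pgls in clone 2 under 3 of 13 (0.0071 to 0.12), and Tkt and Paics in clone 1 under 2 of 13 and 2 of 13. For the 32 S phase genes, clone 1 had 1 higher and 4 lower (median -0.01; all genes: 8.83% and 7.77%). Clone 2 had 11 higher and 3 lower of them (median 0.07; all genes: 14.3% and 12.6%). Among the markers, the 7 of ESCs had 2 higher and 5 lower in clone 1, and 2 higher and 4 lower for clone 2. The same shares of all genes stand beside these marker counts. Of the 5 neural markers only Nes passed in each clone (higher, 0.40 ± 0.031 and 0.35 ± 0.030), and the list summed to 404 to 411 and 401 to 409.8 CPM in the clones and 337 to 348 in chr8A. Their part in the members' differences was not tested.

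**Figure D4:**
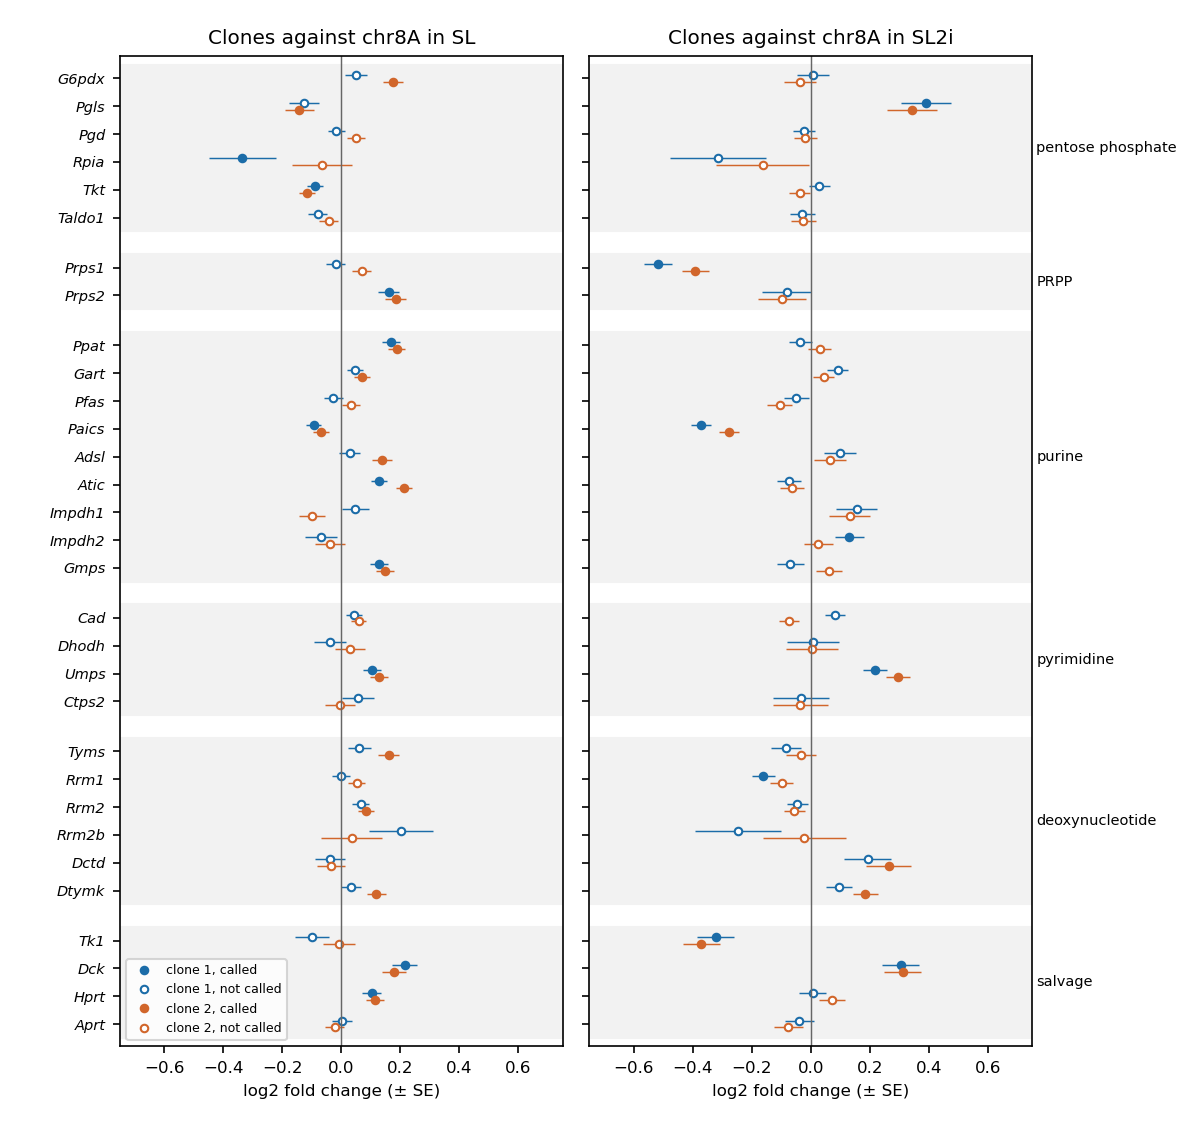
Log2 fold change of each member (x axis, ± SE) in clone 1 and clone 2 against chr8A, by gene and branch (y axis), in SL (left) and SL2i (right); filled points passed the adjusted p of 0.05. Prps1 and Paics lie left of 0 in SL2i at -0.52 and -0.37 in clone 1, and Pgls lies left of 0 in SL and right of 0 in SL2i for both clones.

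The same comparison within SL2i gave calls that overlapped in part with those in SL. Prps1, Paics and Tk1 fell in both clones, and Pgls, Umps and Dck rose in both. Of these, Paics, Umps and Dck had passed in the same direction in both clones in SL. Whether a difference depends on the medium is tested as an interaction below. In clone 1, 4 members rose and 4 fell (all genes: 10.4% and 12.1%), the others being Impdh2, which was higher, and Rrm1, which was lower. In clone 2, 5 rose and 3 fell (all genes: 9.74% and 10.8%), with Dctd and Dtymk also higher. The members' median was -0.03 in both clones. For the 17 other deoxynucleotide genes, clone 1 had 1 higher and 6 lower, and clone 2 had 2 higher and 5 lower. None of the 12 other pyrimidine genes rose in either clone, and the number that fell was 4 in clone 1 and 3 in clone 2. Each group held 2 libraries, and the chr8A libraries are shared.

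Prps1 stood at 183 ± 8.67 CPM in SL2i chr8A, 128 ± 1.34 in clone 1 and 139.6 ± 4.76 in clone 2 (n = 2 each). Its log2 fold changes were -0.52 ± 0.047 (adjusted p = 8.8e-17) and -0.39 ± 0.046 (adjusted p = 1.4e-11), and the libraries did not overlap. The copy Prps1l3 stood at 0.04 ± 0.052 and 0.05 ± 0.052 in the same comparisons. Paics changed by -0.37 ± 0.034 (adjusted p = 1.1e-16) and -0.28 ± 0.034 (adjusted p = 5.4e-11). Ppat, whose start lies close to that of Paics, stood at -0.03 ± 0.039 and 0.03 ± 0.039 (adjusted p = 0.60 and 0.65). Tk1 changed by -0.32 ± 0.063 and -0.37 ± 0.063 (adjusted p = 2.5e-05 and 1.5e-06), from 96.1 ± 1.504 CPM in chr8A. Rrm1 in clone 1 changed by -0.16 ± 0.039 (adjusted p = 8.1e-04).

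On the higher side, Pgls rose by 0.39 ± 0.084 and 0.34 ± 0.084 (adjusted p = 1.4e-04 and 9.6e-04), the reverse of its direction in SL. Dck rose by 0.30 ± 0.064 and 0.31 ± 0.063 (adjusted p = 8.4e-05 and 5.6e-05) and Umps by 0.22 ± 0.040 and 0.30 ± 0.040 (adjusted p = 7.7e-06 and 1.9e-09), as they had in SL. In clone 2 Dctd passed at 0.26 ± 0.078 and Dtymk at 0.18 ± 0.043 (adjusted p = 0.0073 and 4.5e-04). Impdh2 in clone 1 passed narrowly, at 0.13 ± 0.050 (adjusted p = 0.047). The S phase list had 4 higher and 6 lower of 32 in clone 1 (median 0.01; all genes: 10.4% and 12.1%). In clone 2 it had 2 higher and 4 lower (median 0.02; all genes: 9.74% and 10.8%). Trophoblast markers summed to 86.8 to 87.3 and 84.1 to 85.1 CPM in the clones and 59.9 to 67.3 in chr8A, with 2 of 5 tested markers higher and 1 lower in each clone. Krt8 rose by 1.40 ± 0.093 and 1.38 ± 0.093 and Eomes by 0.85 ± 0.16 and 0.72 ± 0.16, while Tfap2c changed by -0.49 ± 0.091 and -0.45 ± 0.090, and their part was not tested.

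Set against each other, the clones differed little. In SL, 2 members were higher and 1 lower in clone 2 than in clone 1 (all genes: 1.69% and 2.71%), namely G6pdx (0.13 ± 0.036, adjusted p = 0.022), Adsl (0.11 ± 0.035, adjusted p = 0.048) and Impdh1 (-0.15 ± 0.046, adjusted p = 0.049). For Tyms, Dtymk, Rrm2 and Gart, which passed against chr8A in clone 2 and not in clone 1, the clones did not differ by this test (adjusted p = 0.13, 0.13, 0.83 and 0.71). DESeq2 called no member, and leaving out single libraries gave 0 to 2 calls. In SL2i none was higher and Cad alone was lower (-0.16 ± 0.035, adjusted p = 0.018; all genes: 0.0873% and 0.0699%), a call that was lost without any 1 of the 4 libraries. The counts at an unadjusted p under 0.05 were 9 in SL and 7 in SL2i by edgeR. The share of all genes at that threshold was not counted, so nothing is read from them.

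Whether a clone's difference from chr8A depends on the medium was tested as an interaction, the log2 fold change of SL2i against SL in the clone minus that in chr8A. For clone 1 it was positive for 2 members and negative for 6 (all genes: 7.78% and 9.24%), and for clone 2 positive for 4 and negative for 11 (7.69% and 9.18%). Prps1 gave -0.50 ± 0.057 and -0.46 ± 0.056 (adjusted p = 1.1e-11 and 1.1e-10): it rose in SL2i in chr8A and fell in the clones. Pgls gave 0.52 ± 0.098 and 0.49 ± 0.097 (adjusted p = 2.4e-05 and 5.9e-05), since it fell in chr8A and not in the clones. Paics gave -0.28 ± 0.043 and -0.21 ± 0.043 (adjusted p = 2.4e-07 and 1.1e-04), a smaller rise in both clones. Atic gave -0.20 ± 0.049 and -0.28 ± 0.049 (adjusted p = 0.0014 and 5.6e-06), a larger fall. Tk1 passed in clone 2 at -0.36 ± 0.082 (adjusted p = 5.0e-04), with -0.22 ± 0.085 in clone 1 (adjusted p = 0.056). Both interactions use the same 5 chr8A libraries. The count was 5 for clone 1 without SL2i clone 1 replicate 2, and for clone 2 it was 9 without SL clone 2 replicate 2 and 8 without SL2i clone 2 replicate 1. Leaving out a library in SL2i left 1 in that group, whose spread was assumed to be that of the other groups.

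The comparison of LbNOX with vector cells asked which transcripts follow the oxidation of NADH. None of the 31 members passed by edgeR in either direction, where 0.0062% of all 16119 genes tested rose and 0.031% fell. DESeq2 also called none, and 1 member had an unadjusted p under 0.05. That member was Dctd, at 47.5, 45.1 and 48.0 CPM in vector and 51.4, 52.9 and 52.5 in LbNOX libraries. Its libraries did not overlap, and its log2 fold change was 0.16 ± 0.054 (adjusted p = 1.00). At the other end Prps2 had 77.4, 80.7 and 76.8 CPM in vector and 69.8, 70.0 and 76.7 in LbNOX libraries, a log2 fold change of -0.12 ± 0.055 (adjusted p = 1.00), again without overlap but by a margin of about 0.1 CPM. All other members lay between these values, and the median was -0.00.

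Of the genes that moved most between media, Impdh2 and Tk1 were close to level here, while Prps2 had the lowest log2 fold change of the members, as given above. Impdh2 had 34.9, 36.0 and 35.6 CPM in vector and 32.8, 34.3 and 34.7 in LbNOX libraries (-0.06 ± 0.060), and Tk1 had 39.8, 37.0 and 35.0 and 37.6, 39.3 and 36.2 (0.01 ± 0.067). The Impdh2 libraries did not overlap, though by a narrow margin, and those of Tk1 did. Libraries of Aprt, Dhodh and Umps did not overlap either. How many of all genes separate in this way was not counted, so nothing is read from these separations or from those of Dctd and Prps2. Dhodh, whose electrons leave through ubiquinone, stood at 64.0 ± 0.203 and 67.0 ± 1.503 CPM (0.07 ± 0.049, adjusted p = 1.00), and G6pdx at 157 ± 2.83 and 156 ± 2.68 (-0.01 ± 0.041). Summed over branches the 2 groups were also near each other, at 2680.2 ± 20.5 and 2678 ± 31.4 CPM for purine, 799 ± 34.9 and 786 ± 38.3 for pyrimidine, 1067 ± 31.1 and 1089 ± 37.5 for deoxynucleotide and 1509.6 ± 47.9 and 1498 ± 15.3 for pentose phosphate genes. By edgeR none of the 32 S phase genes or of the other pathway genes passed either. At an unadjusted p under 0.05 there were 1 S phase gene and 3 other purine genes. The share of all genes at that threshold was not counted, so nothing is read from these unadjusted counts. A p that misses the threshold does not show that the groups are equal.

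**Figure D5:**
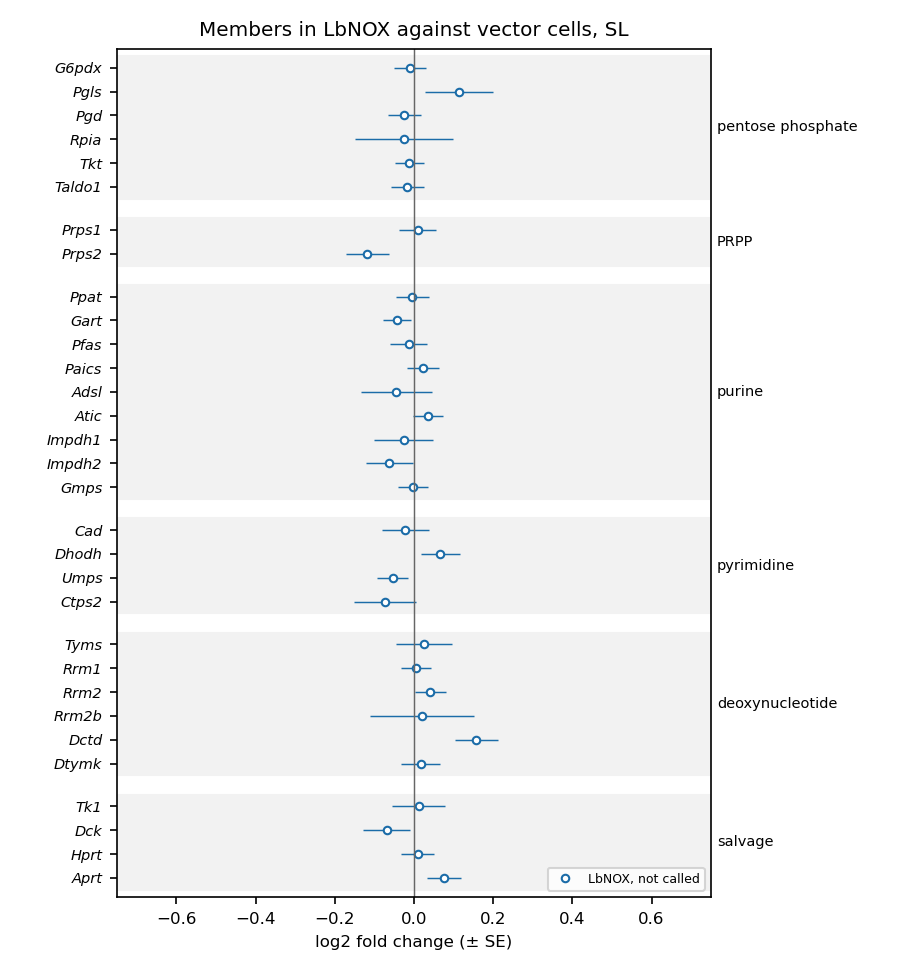
Log2 fold change of each member in LbNOX against vector cells in SL (x axis, ± SE), by gene and branch (y axis); open points did not pass the adjusted p of 0.05. All points lie between -0.12 for Prps2 and 0.16 for Dctd.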

How the data were processed

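Poly(A) RNA libraries (TruSeq stranded, per the labels' protocols) were sequenced, and the authors deposited raw read counts per gene in a pair of tables. The submitters' processing notes name DRAGEN 3.10, featureCounts of Subread and build GRCm39. No source used here gives the annotation or strand setting. The members and gene lists were chosen with earlier results of these data known.

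Counts as deposited were tested with edgeR 4.0.16 (R 4.3.3): filterByExpr, TMM factors, robust dispersion and a quasi-likelihood F test on group means, with no block. The tables were fitted separately, with 6 libraries (16119 genes tested) and 15 libraries (17178 genes), the latter's 6 groups sharing one estimate of spread. P-values were Benjamini-Hochberg adjusted over all genes of a comparison and called under 0.05. The SE is the log2 fold change divided by the square root of F. CPM are TMM-normalized within a table. Every library's value is given for members among the 3 largest rises or falls of a comparison and for those with a called interaction. The other pathway genes named are among the 4 with the smallest adjusted p of their list. Nes, the trophoblast markers and the copies sharing sequence were named after their values were seen. The fits were tested on simulated data. Alternatives were DESeq2 1.42.0, other filters and factors, equal depth, a replicate block and leaving out each library. Shared 30-base words came from GENCODE transcripts and promoters from RefSeq. Deviations of same-numbered replicates from their group means were at most weakly correlated. No library repeated another of its group.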

Additional observations from a re-analysis of the deposited data

Results flagged for a closer look

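These members responded to SL2i by different amounts in a clone and in chr8A, by edgeR's test of the interaction (clone minus chr8A, log2 scale, adjusted over all genes). The explanations were not tested, and both clones are set against the same chr8A libraries.

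In both clones, Prps1 gave -0.50 ± 0.057 in clone 1 and -0.46 ± 0.056 in clone 2, and Pgls gave 0.52 ± 0.098 and 0.49 ± 0.097. The purine genes Paics (-0.28 ± 0.043 and -0.21 ± 0.043), Atic (-0.20 ± 0.049 and -0.28 ± 0.049) and Ppat (-0.20 ± 0.050 and -0.16 ± 0.049) were negative in both, as was Rrm1 (-0.16 ± 0.049 and -0.15 ± 0.048). The largest adjusted p of these was 0.021, and Rrm1 was lost under 4 of 17 alternative settings in clone 1 and 7 of 17 in clone 2. Ppat in clone 2 was lost under 5 of 17.

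Clone 1 also gave Impdh2 at 0.20 ± 0.074 (adjusted p = 0.049; lost under 10 of 17 settings) and Gmps at -0.20 ± 0.055 (adjusted p = 0.0057; lost under 3 of 17), the enzymes on either side of XMP.

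Clone 2 also gave Tk1 at -0.36 ± 0.082 (adjusted p = 5.0e-04), Dctd at 0.30 ± 0.091 (0.013), Prps2 at -0.28 ± 0.089 (0.018), G6pdx at -0.21 ± 0.065 (0.013) and Umps at 0.17 ± 0.050 (0.011). Its smaller ones were Impdh1 at 0.23 ± 0.082 (0.041), Tyms at -0.19 ± 0.062 (0.022), Rrm2 at -0.14 ± 0.046 (0.023) and Cad at -0.13 ± 0.044 (0.025). Cad was lost under 9 of 17 alternative settings, Impdh1 under 8 of 17, Rrm2 under 7 of 17, Tyms under 5 of 17, Prps2 under 3 of 17 (adjusted p from 0.011 to 0.29), G6pdx under 3 of 17 (0.0036 to 0.27) and Dctd under 2 of 17 (0.0030 to 0.060).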

How the results depend on the processing

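Depth was lower in every SL2i library, and groups of 2 libraries limit the SL2i comparisons. The largest media changes held, and each of those followed stayed called under every setting. Of all 69 gene results followed, 48 stayed called under every setting and none changed direction. The 21 lost under 1 or more settings were all differences between lines or interactions. The weakest counts were those between the clones. In SL the 3 calls of clone 2 against clone 1 became 0 with DESeq2 and 1 at equal depth, and 0 to 2 when 1 library was left out. In SL2i the 1 call became 0 with no filter, 0 when only the groups compared were fitted and 0 to 0 when 1 library was left out. The 8 calls of the interaction of clone 1 became 5 to 10 and the 15 of clone 2 became 8 to 14 when 1 library was left out, which in SL2i leaves a lone library assumed to vary like the other groups. The causes were not tested. With the replicate number as a block, members called were 0 for LbNOX, 27, 26 and 27 for the media in chr8A, clone 1 and clone 2, 11 and 16 for the clones in SL, 9 and 9 in SL2i, 4 and 1 for clone 2 against clone 1 in SL and SL2i, and 10 and 16 for the interactions. The labels state no pairing. Correlations between same-numbered libraries ran from -0.16 to 0.13, which shows no large shared deviation but cannot show that no pairing existed.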

Other observations

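The carriers and the p53 targets around these enzymes also differed between media. Of 6 nucleoside transporter genes tested, 4 rose and 2 fell in SL2i in each line, where in chr8A 36.1% of all genes rose and 36.8% fell. In chr8A the lysosomal carrier Slc29a3 rose by 1.69 ± 0.088 on the log2 scale and the plasma membrane carrier Slc29a1 (ENT1) by 0.67 ± 0.042, and Slc29a4 changed by -1.60 ± 0.12 (largest adjusted p = 1.2e-23 by edgeR). Of 14 p53 target genes 3 rose and 10 fell in chr8A (median -0.41), 4 and 10 in clone 1 (all genes: 35.9% and 37.1%) and 3 and 10 in clone 2 (35.8% and 37.2%), whereas Rrm2b, itself a p53 target, rose in all 3. Cdkn1a, a cell cycle inhibitor, rose by 2.21 ± 0.043 and Tigar, a phosphatase known to divert sugar to the pentose phosphate pathway, by 1.78 ± 0.045, while Perp, a membrane protein, changed by -3.98 ± 0.084 and Bbc3 (PUMA) by -1.11 ± 0.063.

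The clones were also compared with chr8A. In SL, clone 1 had 5 of 14 p53 targets higher than chr8A and 2 lower (all genes: 8.83% and 7.77%), and clone 2 had 5 higher and 6 lower (14.3% and 12.6%). In SL2i the counts were 4 and 2 for clone 1 (10.4% and 12.1%) and 5 and 2 for clone 2 (9.74% and 10.8%). Of the 6 transporters, clone 1 had none higher and 1 lower in SL and 1 and 1 in SL2i, and clone 2 had 1 and 1 in SL and 1 and 2 in SL2i. Between the clones in SL, 7 of the 14 p53 targets were lower in clone 2 and none higher (all genes: 2.71% and 1.69%). None of these targets passed in SL2i, where 4 had an unadjusted p under 0.05 by edgeR. The share of all genes at that unadjusted threshold was not counted. For the transporters, 1 was higher in clone 2 and none lower in SL, and none passed in SL2i.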
